A study of Homo sapiens with 3 samples.

Results

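Of the 32738 genes listed in the UMI count table of chambered cardiac organoids (CCOs), 9 genes associated with the pluripotent state are described here: POU5F1, SOX2, NANOG, LIN28A, LIN28B, SALL4, DNMT3B, DPPA4 and L1TD1. They were taken by gene symbol, and each of the 9 symbols matched 1 listed row. CCOs had been made from H7, an established human embryonic stem cell line, whose monolayers were directed towards cardiomyocytes (CMs) with CHIR99021, an inhibitor of GSK3 that switches on Wnt signalling, followed by IWP-2, which blocks the secretion of Wnt proteins. The cells were then aggregated in Matrigel in cardiosphere growing medium (CGM), and from D14 they were kept in RPMI/B27 medium in a spinner flask. The D8 and D14 organoids therefore represent the CGM phase and the D21 organoids the spinner flask phase. All 3 days share the unmodified H7 line and the same induction, and how many CCOs were dissociated for each library is not stated in the sources used here.

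Per day there was 1 droplet library of dissociated organoids. Day and library can therefore not be told apart, and neither a replicate error nor a test between days can be given. After the study's filter on cells, 2657 D8 cells, 3585 D14 cells and 1946 D21 cells remained, with a median of 12282 to 15316 UMIs (unique molecular identifiers, each of which counts 1 captured mRNA molecule) per cell and day. Of the barcodes, 77 to 111 per library occurred in another library too, 19 to 24 of them as kept cells on both sides. No undifferentiated H7 library was analysed here, so the levels below are relative to D8 and not to the stem cells of origin.

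POU5F1, SOX2 and NANOG encode the transcription factors at the core of the pluripotency network, which bind their own and one another's regulatory DNA, POU5F1 and SOX2 often side by side. LIN28A and LIN28B are RNA-binding proteins that block the maturation of let-7 microRNAs, SALL4 is a zinc finger factor, DNMT3B sets new DNA methylation, DPPA4 is a chromatin-associated protein and L1TD1 is an RNA-binding protein derived from a LINE-1 element. Several of these genes also have normal roles outside stem cells: SOX2 in neural, sensory and foregut epithelium, and LIN28B and SALL4 in the fetal liver and blood.

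Members of this network carry the short sequences bound by POU5F1 and SOX2 in their own regulatory DNA, and the promoters of the 9 genes were therefore searched for them. RefSeq promoter windows (GRCh38.p14) were found for 6 of the 9 genes, with 2 windows for LIN28B, and the 250 bases before the start site were searched on both strands for ATGCAAA (the core of the octamer bound by POU5F1, TTTGCAT on the other strand) and ACAATG (the core bound by SOX factors, CATTGT on the other strand). No window was found for POU5F1, LIN28A or SALL4. The octamer core occurred in NANOG and SOX2, and these 2 windows are shown because they are the members' windows with this core, with all matches in capitals.
NANOG, chr12:7789152-7789401, + strand: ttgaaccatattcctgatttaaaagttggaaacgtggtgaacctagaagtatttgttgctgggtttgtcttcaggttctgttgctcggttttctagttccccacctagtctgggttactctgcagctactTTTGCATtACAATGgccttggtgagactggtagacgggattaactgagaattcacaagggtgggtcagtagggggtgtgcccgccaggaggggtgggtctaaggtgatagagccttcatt
SOX2, chr3:181711675-181711924, + strand: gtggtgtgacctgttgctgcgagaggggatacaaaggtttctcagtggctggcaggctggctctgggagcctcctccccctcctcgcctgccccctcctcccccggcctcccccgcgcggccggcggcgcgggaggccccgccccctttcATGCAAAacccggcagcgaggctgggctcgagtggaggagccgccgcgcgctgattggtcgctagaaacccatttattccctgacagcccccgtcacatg
In NANOG the octamer core lay 120 to 114 bases before the start and the SOX core followed after 1 base, 112 to 107 bases before the start. In SOX2 the octamer core lay 100 to 94 bases before the start, with no SOX core in the window. Among the other members, 1 of the 2 windows of LIN28B held ACAATG, 140 to 135 bases before the start. Of 35114 promoter windows of this length, 3.94% held the octamer core, 9.29% the SOX core and 0.541% both. These matches describe letters and were not measured as binding in CCOs.

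Levels of a day are the sum of a gene's UMIs in the kept cells, scaled to counts per 1000000 UMIs of the day (CPM). All intervals are 95% intervals, and they cover counting error only, not differences between cells or cultures. Because the sums run over mixed cells, fewer cells that hold a gene and less of its RNA per cell cannot be told apart in them. A gene is said to have fallen or risen where its CPM changed by 2-fold or more.

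POU5F1 fell over the 3 days from 29.7 to 5.85 and 0.0971 CPM, the last of which rests on 3 UMIs among 1946 cells. SOX2 fell from 18.2 to 4.30 and 0.129 CPM, with 4 UMIs left at D21. NANOG was at 0.813, 0.876 and 0.971 CPM, from 38, 44 and 30 UMIs. NANOG has processed copies elsewhere in the genome that can share reads with it, and how such reads were counted was not checked, so that its level is uncertain. POU5F1 and SOX2 were thus low but measurable at D8 and at the limit of detection at D21, while the NANOG levels of the 3 days differed by less than counting error. The D8 to D14 log2 ratio was -2.34 (-2.53 to -2.16) for POU5F1, -2.09 (-2.31 to -1.87) for SOX2 and 0.11 (-0.55 to 0.77) for NANOG. From D14 to D21 it was -5.91 (-8.20 to -4.35) for POU5F1, -5.05 (-6.94 to -3.68) for SOX2 and 0.15 (-0.57 to 0.85) for NANOG, so that the interval for NANOG leaves out a 2-fold fall in both steps.

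The let-7 antagonists differed in pace. LIN28A fell from 174 to 19.98 and 0.291 CPM, with log2 ratios of -3.13 (-3.22 to -3.03) and -6.10 (-7.23 to -5.17). LIN28B went from 64.7 to 36.1 and 9.74 CPM, with log2 ratios of -0.84 (-0.93 to -0.76) and -1.89 (-2.07 to -1.71), so that it passed 2-fold in the later step alone. From D8 to D21 LIN28A was lower by 599-fold and LIN28B by 6.65-fold. At D21, 301 UMIs of LIN28B were left in the library and 9 of LIN28A.

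SALL4 fell from 26.6 to 9.99 and 2.27 CPM (log2 ratios -1.41, -1.57 to -1.26, and -2.14, -2.52 to -1.78). DNMT3B fell from 9.90 to 4.74 and 2.17 CPM (log2 ratios -1.06, -1.30 to -0.83, and -1.13, -1.54 to -0.73), with both intervals reaching across 2-fold and a value of -0.88 in the later step under another scaling (TMM). At D21, SALL4 was thus 11.8-fold and DNMT3B 4.57-fold lower than at D8. DPPA4 fell from 24.2 to 8.50 and 0.680 CPM and L1TD1 from 30.4 to 12.6 and 0.518 CPM, which amounts to 35.6-fold and 58.7-fold between D8 and D21.

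In all, 7 of the 9 genes fell from D8 to D14, where 4.95% of the 17709 genes tested did, and 8 of 9 fell from D14 to D21, where 20.5% of 17334 did. Between D8 and D21 the number was 8 of 9, against 19.7% of 17177 genes. The median log2 ratio of the 9 genes was -1.41, -3.64 and -5.15 in the 3 comparisons, beside 0.12, -0.29 and -0.17 over all genes tested. The 3 comparisons share libraries and are not independent of each other. NANOG was not among the genes that fell in any of them.

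**Figure D1:**
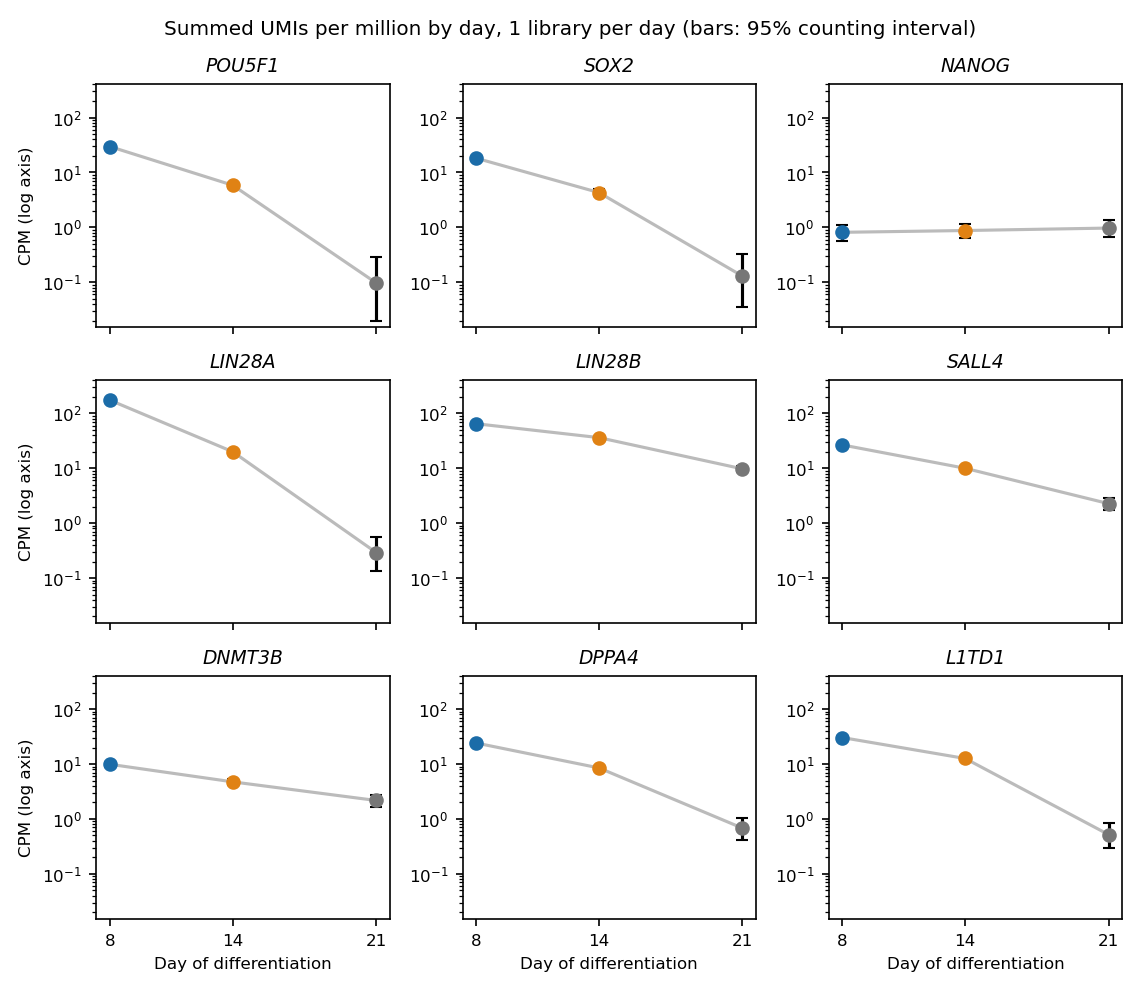
Level of each of the 9 genes (CPM, log axis) against the day of differentiation (D8, D14, D21), 1 library per day, with bars for the 95% counting interval. NANOG stays between 0.813 and 0.971 CPM, LIN28B keeps 9.74 CPM at D21, and the other 7 genes end between 0.0971 and 2.27 CPM.

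To find the cells that still held these genes, all cells were clustered together, and clusters were named from fixed markers. The 9 genes and the other listed genes, among them the 10 undifferentiated stem cell markers, were left out of the clustering. POU5F1 had its highest level in cluster 12, with 201 cells at D8 (7.56% of the day's cells, 10.9% of its UMIs) and 77 cells at D14 (2.15% and 3.51%). At D8 cluster 12 had 5 of 8 surface ectoderm markers at 2-fold or more above the other cells (TFAP2A, GRHL3, DLX5, DLX6 and DLX3) and 3 of 8 neural markers (PAX6, SIX3 and LHX2). At D14 it had 4 of 8 surface ectoderm markers (TFAP2A, DLX5, DLX3 and GATA3) and 2 of 8 germ cell markers (SOX15 and TFAP2C), and it is called surface ectoderm-like. Of 10 undifferentiated stem cell markers it had 1 on each day, ZFP42 at D8 and UTF1 at D14, and no cluster had more than 2. Its leading genes at D8 were SFRP2, CRABP1, CLDN10 and RARRES2, and at D14 MIR205HG, GAL, MT2A and TFAP2A. No cluster could be named undifferentiated stem cell-like. This does not show that such cells were absent, since neither these markers nor the 9 genes could shape a cluster. With 10 CPM added to both sides, a marker under 10 CPM in a cluster also cannot reach 2-fold.

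Cluster 12 held 88.3% (86.5 to 89.9) of the POU5F1 UMIs of D8 and 88.4% (84.2 to 91.9) of those of D14. The level of POU5F1 at D8 was 241 CPM in cluster 12, 10.2 CPM in the foregut endoderm-like cluster 7 and 1.99 to 3.58 CPM in the 5 other clusters, which could not be separated from their neighbours in this order. In cluster 7, 1 cell held 39 of the 67 POU5F1 UMIs, and without it the level there was 4.31 CPM. At D14 the level of POU5F1 was 147 CPM in cluster 12 and at most 2.12 CPM elsewhere. Since cluster 12 was picked for its POU5F1, this level is a description, whereas the other members had no part in the choice.

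SOX2 at D8 reached 144 CPM in cluster 12, 8.07 CPM in cluster 7 and, as the lowest level, 0.265 CPM in the CM-like cluster 5. Cluster 12 held 85.8% (83.3 to 88.1) of its UMIs. At D14 cluster 12 held 44.4% (37.7 to 51.3) and the foregut endoderm-like cluster 7 held 30.6% (24.5 to 37.2), at 54.4 and 14.0 CPM. The unnamed cluster 11 followed at 4.93 CPM, and these 3 levels were apart from one another by more than counting error. At D14 SOX2 was therefore spread over ectoderm-like and endoderm-like cells, with at most 8 of 66 UMIs in 1 cell of cluster 7. NANOG showed no cluster that was apart from the next at any day, with 0.981 CPM in cluster 12 at D8, and its highest pool level was 6.18 CPM, from 3 UMIs.

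LIN28A was present in each cluster at D8, from 70.4 CPM in the CM-like cluster 5 to 288 CPM in cluster 7 and 495 CPM in cluster 12. LIN28B did not follow it, with 64.4 CPM in cluster 12 and 74.0 CPM in cluster 5. SALL4 had 42.2 CPM in cluster 12 and 36.5 CPM in cluster 7, which were not apart (log2 difference 0.21, -0.06 to 0.48). DNMT3B reached 28.9 CPM in cluster 12, DPPA4 62.0 CPM and L1TD1 158 CPM, each above the next cluster beyond counting error.

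Against all other cells of D8, the log2 difference of cluster 12 was 5.94 (5.71 to 6.19) for POU5F1, 5.63 for SOX2, 3.41 for L1TD1, 1.93 for DNMT3B, 1.87 for LIN28A and 1.67 for DPPA4. It was 0.77 for SALL4, 0.31 (-1.40 to 1.68) for NANOG and -0.01 for LIN28B. Leaving out POU5F1, by which the cluster was picked, 5 of the 8 other genes were higher at 2-fold or more in cluster 12 at D8, where 5.45% of the 15872 genes tested were. At D14 the same 5 genes and NANOG were above 2-fold by value, NANOG from 4 UMIs with an interval that reached from -0.48 to 2.93, where 10.6% of 16332 genes were. SALL4 (0.40) and LIN28B (-0.19) were not.

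**Figure D2:**
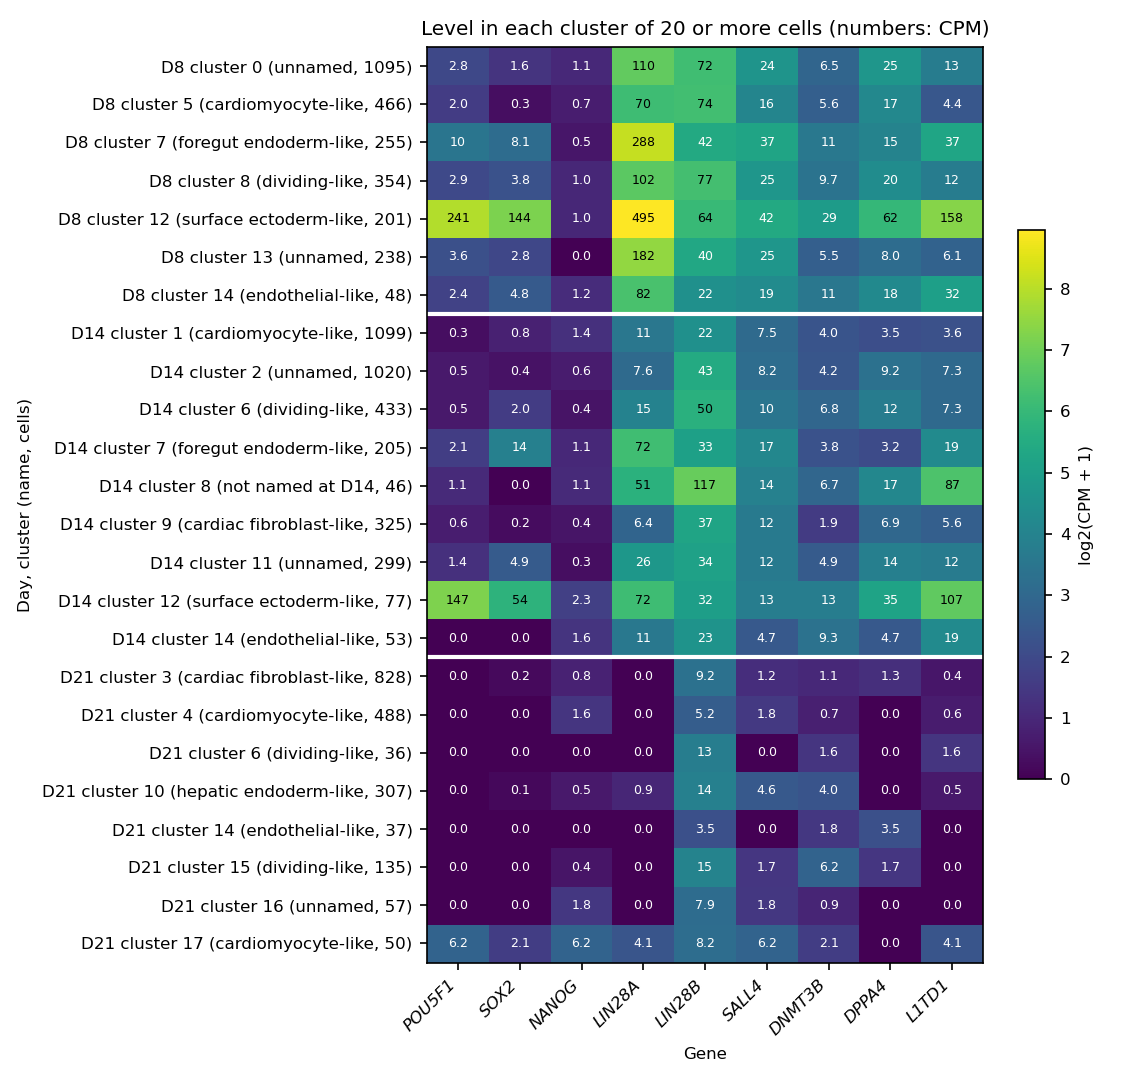
Level of the 9 genes (columns) in each cluster with 20 or more cells (rows, by day, with the cluster's name and number of cells), coloured by log2(CPM + 1) and with the CPM printed in each field. POU5F1 and SOX2 stand out in cluster 12 at D8 and D14 and L1TD1 at D8, LIN28A and SALL4 extend to the foregut endoderm-like cluster 7, LIN28B is found in every cluster and NANOG is low throughout.

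The ratio between D8 and D14 was next computed inside and outside cluster 12. Inside cluster 12 the log2 ratio of POU5F1 was -0.71 (-0.91 to -0.51), and in all other cells its level went from 3.91 to 0.701 CPM, a log2 ratio of -2.48 (-3.06 to -1.94), or -2.09 without the single cell of cluster 7. Cluster 12 itself went from 7.56% to 2.15% of the cells. The 5.08-fold fall of POU5F1 over all cells thus went with a smaller share of cluster 12 and with a change of less than 2-fold in its summed level there. At D14 this level rests on few cells, as 5 of the 77 cells held 214 of the 260 UMIs. Without the cells richest in POU5F1 on both days, the log2 ratio in cluster 12 was -0.78 (-1.28 to -0.31). In cells thinned to equal depth, POU5F1 was detected in 27.9% (21.8 to 34.6) of cluster 12 at D8 and in 11.7% (5.49 to 21.0) at D14. The summed level therefore does not show that POU5F1 held in most cells of cluster 12.

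SOX2 fell inside cluster 12 (log2 ratio -1.40, -1.72 to -1.09), while outside it the ratio was -0.23 (-0.61 to 0.15). LIN28A fell to a like extent on both sides, by 2.78 inside and 2.90 outside on the log2 scale. SALL4 fell on both sides too (-1.69 and -1.32), and DPPA4 fell outside (-1.38) with a ratio of -0.82 inside. The ratios were -0.56 and -0.69 for L1TD1 and -1.02 and -0.84 for LIN28B, close to each other on both sides. Without cluster 12, 4 of the 9 genes, POU5F1, LIN28A, SALL4 and DPPA4, fell from D8 to D14, where 4.68% of the 17531 genes tested in those cells did.

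In CM-like cells, cluster 5 at D8, cluster 1 for nearly all of D14 and clusters 4 and 17 at D21, LIN28A, LIN28B, SALL4 and DPPA4 fell in both steps. Over all cells, 4.95% and 20.5% of the genes tested fell in these steps. The share of all genes that fell in CM-like cells alone was not computed. From D8 to D14, L1TD1 (4.37 and 3.61 CPM) and DNMT3B (5.57 and 3.95 CPM) stayed within 2-fold in them, and both fell to 0.821 CPM, from 6 UMIs each, at D21. LIN28A went from 70.4 to 10.6 CPM (log2 ratio -2.73) and to 2 UMIs at D21. LIN28B went from 74.0 to 21.5 and 5.34 CPM (log2 ratios -1.78 and -2.01). LIN28B thus fell in CM-like cells in the step from D8 to D14 in which it did not pass 2-fold over all cells. SALL4 fell from 16.0 to 7.55 and 2.05 CPM, and DPPA4 from 16.97 to 3.47 CPM and then to no UMI. DPPA4 was 8.45-fold lower in the later step with the D21 count set to 3, with an upper limit of -2.73 for its log2 ratio. POU5F1 had 15, 4 and 3 UMIs in CM-like cells of the 3 days and SOX2 2, 11 and 1. NANOG had 5, 20 and 14 UMIs in them (0.663, 1.36 and 1.92 CPM). Its log2 ratio was 1.04 (-0.42 to 2.81) from D8 to D14 and 1.53 (-0.02 to 3.36) from D8 to D21. Both values are above 2-fold, with intervals that span no change.

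The foregut endoderm-like cluster 7 had cells on D8 (255) and D14 (205). POU5F1 fell there from 10.2 to 2.12 CPM, or from 4.31 CPM without the single cell, with a log2 ratio of -1.02 (-2.23 to 0.06) that then spans no change. LIN28A fell from 288 to 72.1 CPM, SALL4 from 36.5 to 16.5 CPM, DNMT3B from 11.0 to 3.81 CPM and DPPA4 from 15.1 to 3.18 CPM. SOX2 instead went from 8.07 to 14.0 CPM (log2 ratio 0.79, 0.25 to 1.34). The share of all genes that fell or rose in cluster 7 was not computed. SOX2 is a known factor of the anterior foregut. On either day the cluster had 6 of 8 general foregut endoderm markers, among them FOXA1, FOXA2 and HHEX, and 4 of 8 hepatic endoderm markers. These markers do not single out the anterior foregut, and which of its cells held SOX2 was not tested.

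Cluster 8 was dividing-like at D8, but its 46 D14 cells led with LINC00458, HBG2 and HBZ, the last 2 of them haemoglobin genes, so they are given by number only. Those 46 cells had the highest LIN28B of any D14 cluster, 117 CPM, and L1TD1 at 86.7 CPM, not apart from the 107 CPM of cluster 12. NODAL and VRTN, of the undifferentiated stem cell markers, were raised in them, while POU5F1 had 1 UMI and SOX2 none. At D21 the hepatic endoderm-like cluster 10 held 15.8% of the cells and 24.4% of the UMIs, and it held 7 of the 9 LIN28A UMIs, 35 of the 70 of SALL4, 44.8% of those of DNMT3B and 34.6% of those of LIN28B. The 3 POU5F1 UMIs of D21 were in cluster 17, with 50 CM-like cells of a low median depth of 8172 UMIs, and 15 of the 21 DPPA4 UMIs were in the cardiac fibroblast-like cluster 3.

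Because summed levels can hide single cells, the POU5F1 UMIs were followed cell by cell. At D8, 198 cells had a POU5F1 UMI and 111 of them had 1. The 40 cells with 10 or more UMIs, 1.51% of the cells, held 1075 of the 1389 UMIs (77.4%), and 39 of the 40 were in cluster 12. At D14, 54 cells had a UMI, and 5 cells with 17 to 82 UMIs, all in cluster 12, held 214 of 294 (72.8%). No D21 cell had more than 2. POU5F1 RNA at D8 and D14 was thus concentrated in few cells, and intervals on counts are narrower than the spread between such cells. The limit of 10 UMIs, chosen after the values were seen, falls in a gradual ranking at D8 (cells with 10 and 9 UMIs are neighbours) and between 17 and 9 UMIs at D14.

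**Figure D3:**
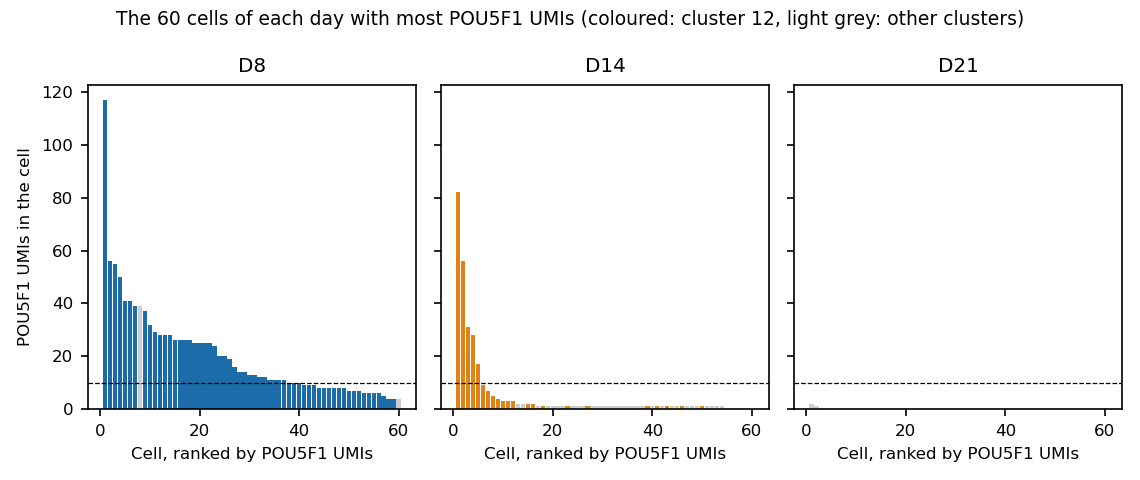
POU5F1 UMIs in each of the 60 cells of a day with most of them (bars, ranked along the horizontal axis; coloured for cluster 12, light grey for other clusters; dashed line at 10 UMIs). The highest cells have 117 UMIs at D8 and 82 at D14, and at D21 no bar is above 2.

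Median depth was 15316 UMIs over all cells and 22173 over cluster 12 at D8, and 12282 and 20225 at D14. The cells with 10 or more POU5F1 UMIs were deeper, with a median of 32097.5 UMIs at D8 and 40895 at D14. None of their barcodes occurred in another library, and 2 of the 40 and 1 of the 5 were among the 5% of cells with the highest doublet scores. The part of depth and doublets in their levels was not tested beyond this. Their POU5F1 level follows from how they were picked, and the comparison below is on the other genes, in CPM and without a test.

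The 40 cells of D8 had SOX2 at 172 CPM (152 to 195), the other 162 cells of cluster 12 at 130 CPM (119 to 142) and all other cells at 2.90 CPM. L1TD1 was at 274, 114 and 14.5 CPM in the same order, DPPA4 at 83.1, 54.4 and 19.4 CPM, and DNMT3B at 44.3, 23.4 and 7.54 CPM. Between the 40 cells and the rest of cluster 12, L1TD1 was thus 2-fold or more higher (log2 difference 1.26, 1.06 to 1.46), DNMT3B at 0.92 (0.43 to 1.40), DPPA4 at 0.61 and SOX2 at 0.40. LIN28A was nearly level (537 and 479 CPM, log2 difference 0.17), SALL4 was at -0.30 (-0.78 to 0.15), and LIN28B was 2-fold or more lower (33.2 and 75.7 CPM, log2 difference -1.19). NANOG had 4 UMIs in the 40 cells. The single D8 cell outside cluster 12 had 39 POU5F1, 1 SOX2, 34 LIN28A and 16 L1TD1 UMIs, with 4 UMIs of the endoderm factor FOXA2 and none of TFAP2A.

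Genes outside the 9 separated the 40 cells further from the rest of cluster 12. TDGF1, the NODAL co-receptor, was at 41.5 CPM in the 40 cells and 1.35 CPM in the rest of cluster 12. Of its 60 UMIs in the 40 cells, 11 were in the single cell of cluster 7, and cluster 7 as a whole also held TDGF1, as given below. UTF1, a chromatin protein of stem cells, was at 20.1 CPM in the 40 cells and 3.23 CPM in the rest of cluster 12. The surface glycoprotein PODXL was at 204 and 44.7 CPM, and the adhesion molecules EPCAM and CDH1 were at 747 and 163 CPM and at 99.7 and 26.4 CPM. These 5 had log2 differences of 1.92 (CDH1) to 4.95 (TDGF1). Of the 32 other genes associated with pluripotency, 19 had enough UMIs for this comparison. Of these, 11 were 2-fold or more higher in the 40 cells and none lower, where 4.25% of 10489 genes were higher and 9.98% lower. USP44 (log2 difference 0.23), GAL (0.11), MYCN (0.01) and OTX2 (-0.24) were among the 8 within 2-fold. Of 8 markers of dividing cells, 2 were 2-fold or more higher, among them TOP2A at 303 and 123 CPM, and the part of cell division in these levels was not tested. Of 6 surface ectoderm markers compared, GATA3 was 2-fold or more higher in the 40 cells (114 and 44.4 CPM) and the other 5 were within 2-fold, such as TFAP2A (75.5 and 74.6 CPM), DLX5 (76.2 and 69.5 CPM) and GRHL3 (29.8 and 18.6 CPM). Of 4 neural markers compared, PAX6, SIX3 and LHX2 were 2-fold or more lower, where 9.98% of all genes tested were. PAX6, an eye and forebrain factor, had no UMI in the 40 cells, with an exact upper bound of 2.55 CPM, and 40.1 CPM in the rest, and the Wnt modulator SFRP2 was at 140 and 416 CPM. SFRP2 was looked at after its values were seen.

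The 5 cells of D14 showed the members in single cells. Their counts are at full depth, 31874 to 52761 UMIs per cell, and no equally deep cells of cluster 12 were set beside them. The cell richest in POU5F1 had 82 POU5F1, 6 SOX2 and 1 NANOG UMIs and a UMI of all 9 genes, and the next had 56, 6 and 3 and a UMI of 8 genes. The other 3 had 31, 28 and 17 POU5F1 UMIs, 4, 3 and 6 of SOX2, none of NANOG, and 7, 7 and 6 of the genes. All 5 had SOX2, LIN28A, LIN28B, DPPA4 and L1TD1, and none had PAX6. Summed, they had TDGF1 at 59.7 CPM (31.8 to 102) and UTF1 at 82.6 CPM (49.0 to 131), against 0.647 and 1.29 CPM in the 72 other cells of cluster 12, where TDGF1 had 1 UMI and UTF1 2. Of the other pluripotency-associated genes, 10 had enough UMIs for this comparison. Of these, 5 were 2-fold or more higher in the 5 cells, where 5.43% of 7336 genes were. UTF1, among these 5 genes, had enough UMIs only through the 5 cells, with 18 UMIs in them and 2 in the rest. Another 2 of the 10 were 2-fold or more lower, where 18.1% of all genes tested were, so that this is near the level of all genes. GAL was among these 2, at 18.4 against 634 CPM, and PRDM14 and DPPA2 had no UMI in cluster 12. TFAP2A was at 138 CPM against 232 CPM, and EPCAM, unlike at D8, was level (386 and 399 CPM). A single one of the 5 held 54 of the 189 L1TD1 UMIs of cluster 12 at D14.

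**Figure D4:**
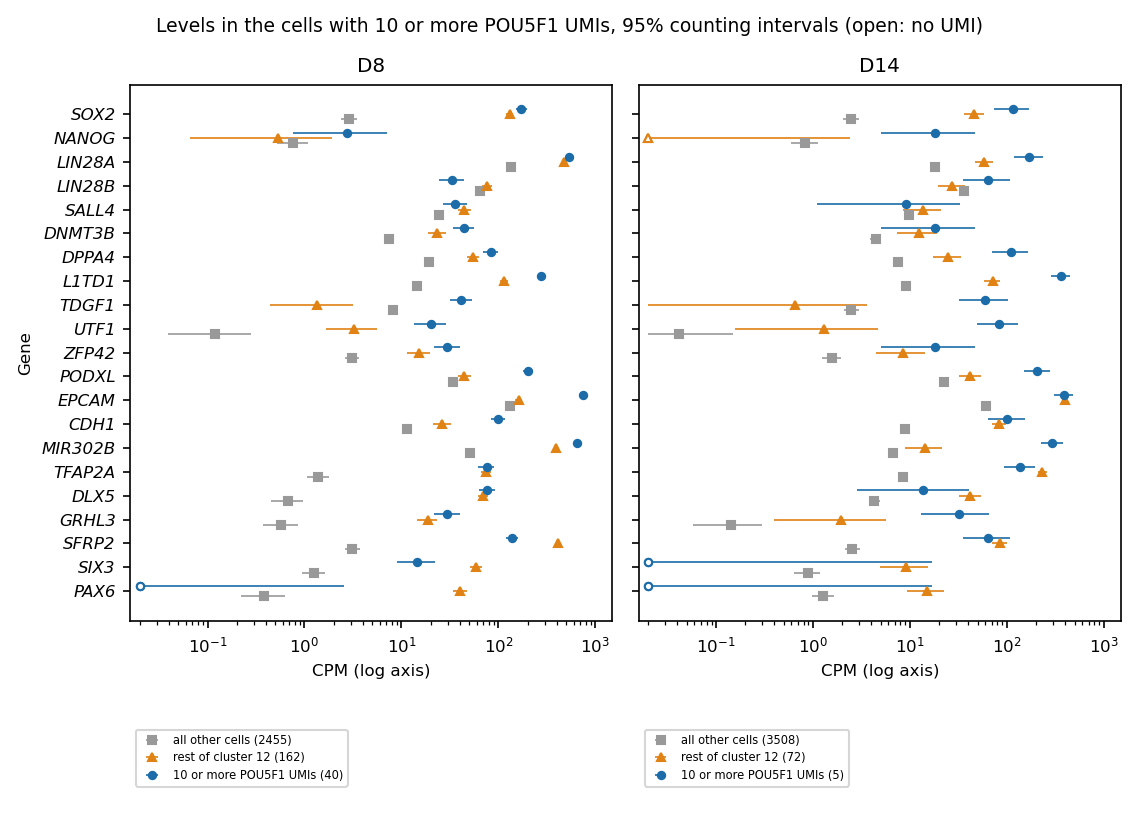
Level (CPM, log axis, with 95% counting intervals) of 21 genes in cells with 10 or more POU5F1 UMIs (circles), in the rest of cluster 12 (triangles) and in all other cells (squares), at D8 and D14; open symbols at the left edge mark no UMI. TDGF1, UTF1, PODXL and L1TD1 are higher in the circles than in the triangles on both days, TFAP2A is not, and PAX6 has no UMI in the circles.

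Whether the genes occurred together was counted in cells thinned to 4000 UMIs each, so that depth was equal. A UMI of 3 or more of the 9 genes was found in 163 of 2657 D8 cells (6.13%, 5.25 to 7.12), in 26 of 3585 D14 cells (0.725%, 0.474 to 1.06) and in none of 1946 D21 cells, with an exact upper bound of 0.189%. Cells with none of the 9 made up 35.3%, 72.7% and 93.6%. At full depth the share with 3 or more was 43.0%, 8.17% and 0.103%. CM-like cells, which should lack the pluripotent programme, had 3 or more in 1.07% at D8 and 0.0910% at D14, with median depths of 14430 and 12234 UMIs in clusters 5 and 1.

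In cluster 12, 45.3% (38.3 to 52.4) of the D8 cells and 11.7% (5.49 to 21.0) of the D14 cells had 3 or more of the genes, and it held 91 of the 163 cells at D8 and 9 of the 26 at D14. The rest were spread over other clusters, with 35 cells in the unnamed cluster 0 and 14 in cluster 7 at D8. POU5F1 was detected in 27.9% (21.8 to 34.6) of cluster 12 cells at D8 and in 0.858% (0.234 to 2.18) of CM-like cells, and SOX2 in 35.3% and 0.215%. POU5F1 and SOX2 shared 24 D8 cells and 5 D14 cells, all of them in cluster 12, and no D21 cell. Within cluster 12 at D8, 42.9% of the cells with POU5F1 had SOX2, as did 32.4% of those without. With all UMIs kept, the core factors POU5F1, SOX2 and NANOG occurred together in 6 D8 cells, 2 D14 cells and no D21 cell.

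**Figure D5:**
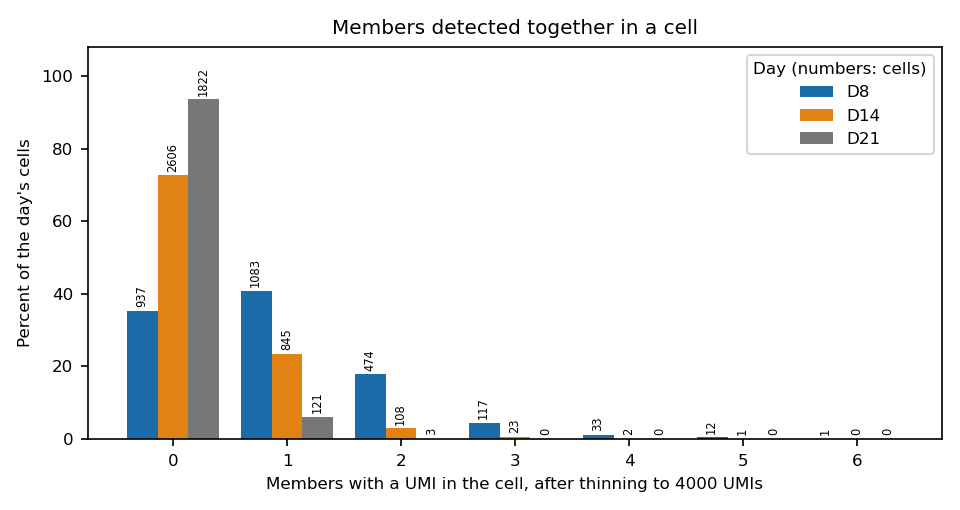
Percent of each day's cells (vertical axis) by the number of the 9 genes with a UMI after thinning to 4000 UMIs (horizontal axis), with the number of cells above each bar. The D8 cells reach 6 genes, the D14 cells 5 and the D21 cells 2.

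Of 32 other genes associated with pluripotency, fixed as a list, 26 could be tested from D8 to D14, and 13 fell and 3 rose, where 876 of the 17709 genes tested fell and 2402 rose. TDGF1 fell from 8.60 to 2.69 and 0.647 CPM, ZFP42 from 4.88 to 1.85 CPM and to no UMI, and the deubiquitinase gene USP44 from 13.3 to 3.32 and 0.939 CPM. OTX2, a factor of the primed state and of the forebrain, fell from 27.01 to 5.61 and 0.129 CPM. The median log2 ratio of the list was -0.99 in this step. In the step to D21 it was -1.82, and 14 of 23 genes fell and 1 rose. From D8 to D21, 16 of 25 fell and 2 rose. Over all genes tested, 20.5% fell in the later step and 19.7% over the whole course. The TGF-beta family ligand genes LEFTY2 (0.941 to 8.00 CPM) and GDF3 (0.342 to 2.39 CPM) and the nuclear receptor gene ESRRB (0.150 to 0.836 CPM) were the 3 that rose from D8 to D14, and LEFTY1 rose from D14 to D21.

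TDGF1 and the miR-302 locus, both well known from stem cells, were also found in cells with little POU5F1. Of the 402 TDGF1 UMIs of D8, 273 were in the foregut endoderm-like cluster 7, at 41.6 CPM. MIR302B, added after its values were seen, is the row for polyadenylated RNA of the locus of hsa-miR-302b-3p, a microRNA that is driven by POU5F1 and SOX2 in stem cells. It is shown with its seed (bases 2 to 8, which pair with target mRNAs) in capitals, at chr4:112648489-112648511 on the - strand (GRCh38.p14).
hsa-miR-302b-3p: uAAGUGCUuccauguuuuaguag
The RNA of this locus fell from 96.7 to 8.12 and 0.0971 CPM. Its D8 level was 467 CPM in cluster 12 and 245 CPM in cluster 7, and 20.9 CPM or less in each of the 5 other clusters. At D14 the level was 48.8 CPM in cluster 12, 31.1 CPM in cluster 8, 23.9 CPM in cluster 7 and 11.6 CPM in the CM-like cluster 1. The other clusters of that day with 20 or more cells had 0.548 CPM or less. In the 40 D8 cells with 10 or more POU5F1 UMIs it was at 641 CPM and in the rest of cluster 12 at 396 CPM. In the 5 such cells of D14 it was at 294 CPM against 14.2 CPM in the rest of cluster 12. The mature microRNA was not measured.

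Of 11 genes of the LIN28 and let-7 pathway, 10 were in the table and tested, and 2 fell in each of the successive steps and 3 over the whole course, with none that rose. Over all genes tested, 4.95%, 20.5% and 19.7% fell in the 3 comparisons, so that 2 of 10 in the later step is at the level of all genes. HMGA1, which encodes an architectural chromatin protein, fell from 1184 to 491 and 59.4 CPM, and TRIM71, itself a let-7 target, from 32.2 to 15.0 and 6.41 CPM. The let-7 target HMGA2 was at 118, 111 and 131 CPM, and ZCCHC6 and DIS3L2, the enzymes that tail and degrade let-7 precursors, were also within 2-fold throughout. TRIM71 at D21 had 173 of its 198 UMIs in the hepatic endoderm-like cluster 10, the cluster that also held 7 of the 9 LIN28A UMIs.

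Beside DNMT3B, 8 genes of DNA methylation were listed and 7 were in the table. None of the 6 tested from D8 to D14 passed 2-fold. The de novo methyltransferase gene DNMT3A was at 36.7, 41.6 and 32.04 CPM and the maintenance enzyme gene DNMT1 at 88.9, 67.7 and 62.8 CPM. TET1, which encodes an oxidase of methylated cytosine, fell from 141 to 41.2 CPM between D14 and D21, and DNMT3L, a cofactor of DNMT3A and DNMT3B, rose from 0.139 to 1.65 CPM, with 47 of its 51 UMIs at D21 in cluster 10.

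Of the 8 paralogs of the members, 5 of 7 tested fell between D8 and D14, 4 of 5 in the later step and 7 of 7 over the whole course, with none that rose, beside 4.95%, 20.5% and 19.7% of all genes tested that fell. SALL1 fell from 60.2 to 24.2 and 7.99 CPM and SOX3 from 3.78 to 0.657 and 0.0647 CPM, the last from 2 UMIs. SOX1 had no UMI on any day. POU5F1B, a near-identical copy of POU5F1, had 64, 54 and 11 UMIs, and since reads can be shared between copies its count and that of POU5F1 are uncertain by an amount that was not measured.

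Over 20 pools (clusters of 50 or more cells by day), the genes outside the 9 whose level was most like that of POU5F1, by Pearson correlation of log2(CPM + 10), were SFRP2 (0.95), PAX6 (0.94) and TFAP2C (0.94). For SOX2 they were SIX3 (0.95), SFRP2 (0.94) and GRHL3 (0.93). These values describe 20 pools that share 3 libraries, and cluster 12 sets most of the range for both genes. Alike pool levels do not show that genes share cells. PAX6 had no UMI in the 40 D8 cells with most POU5F1, and its overlap with the other cells that held POU5F1 was not counted. For LIN28A the leading genes outside the 9 were NR6A1 (0.95), OTX2 (0.94) and LINC00617 (0.94), for SALL4 NR6A1 (0.95), CNTNAP2 (0.93) and BAG4 (0.92), and for LIN28B CCDC59 (0.94), THOC3 (0.93) and UBE2V2 (0.93). Outside the 9, L1TD1 was most like NFE2L3 (0.92), TMEM54 (0.91) and KCNK12 (0.90), DPPA4 like NUFIP1 (0.89), DRAXIN (0.88) and OSBPL1A (0.88), and DNMT3B like DIAPH2 (0.86), FAM57B (0.86) and KCNK12 (0.85). Among the members themselves the value was 0.96 for POU5F1 with SOX2 and for LIN28A with SALL4, 0.92 for SOX2 with L1TD1, 0.90 for POU5F1 with L1TD1, 0.87 for DNMT3B with L1TD1 and 0.29 for POU5F1 with LIN28B. NANOG did not reach 10 CPM in any pool and was left out of this comparison.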

How the data were processed

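Droplet 3′ libraries of dissociated CCOs from D8, D14 and D21, 1 per day, were analysed. The table deposited by the authors holds unnormalized UMI counts (whole numbers, 17327 barcodes), and the submitters' processing notes name Cell Ranger, Seurat 3.2.1 and hg19. No coordinates of hg19 are used, and promoter and microRNA sequences are from RefSeq (GRCh38.p14). Each column name gave the day of its library, and 0 columns belonged to other samples.

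The study's filter was applied to cells (above 2000 and below 7500 genes, less than 10% mitochondrial UMIs), which kept 8188 (the D8 number differs from the one stated by the study, those of D14 and D21 do not), and to genes (10 barcodes or more), which kept 20394. They held 46767738, 50247286 and 30898727 UMIs at D8, D14 and D21, with 4007 to 95021 in a cell. Seurat 5.3.0 in R 4.3.3 log-normalized counts to 10000 per cell, and 2000 variable genes, less 22 members and listed genes, gave 20 principal components and 18 clusters at a resolution of 0.8, without integration. For a name, a cluster needed 3 markers of 1 class that exceeded the day's other cells by 2-fold, with 10 CPM added, and 2 more of them than of any other class. These thresholds were set with the data in view.

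Summed counts were given as CPM with exact Poisson intervals, ratios with exact conditional binomial intervals and shares with exact Clopper-Pearson intervals (scipy 1.17.1, numpy 2.4.6, pandas 2.3.3). Of these, the ratios and their intervals were checked on simulated counts. Genes tested had 20 or more UMIs over both groups compared. A count of 0 was set to 3 for ratios. No p-value was computed. The 9 genes, the lists and the markers were chosen with earlier results of these data known. The genes named are the members, the listed genes and, for each member at 10 CPM or more in a pool, the 3 most like it among 9346 genes at 20 CPM or more. MIR302B, SFRP2 and MIR205HG, the other leading genes of clusters 8 and 12 and the limit of 10 POU5F1 UMIs were chosen after values were seen. Scrublet in scanpy 1.11.5 called 1, 1 and 7 cells as doublets (0.0376%, 0.0279% and 0.360%), too few for the caller to have worked, and all cells were kept. Alternatives were other cell filters, resolutions, variable genes, scalings (TMM from edgeR 4.0.16), thinning, detection and fold limits, subtraction of the level in CM-like cells, and leaving out clusters, cells or shared barcodes.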

Additional observations from a re-analysis of the deposited data

Results flagged for a closer look

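In 3 genes, the level moved in opposite directions from D8 to D14 in different groups of cells, and the difference between the groups was not tested. CM-like cells were cluster 5 at D8 and nearly all cluster 1 at D14, and the other groups are single clusters. The log2 ratio of SOX2 from D8 to D14 was 0.79 in the foregut endoderm-like cluster 7 and -1.40 in the surface ectoderm-like cluster 12. For LIN28B it was 0.60 in cluster 8 and -1.78 in CM-like cells, and for L1TD1 2.80 in cluster 8 and -1.01 in cluster 7. Cluster 8 had different leading genes on the 2 days, so its ratio compares unlike cells.

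Barcodes outside the filter on cells also held the genes. The summed level of the 9 genes was 431 CPM in 906 such barcodes at D8 (379 CPM in kept cells), 74.7 CPM in 1030 at D14 (103 CPM in kept cells) and 12.7 CPM in 7203 at D21 (16.9 CPM in kept cells), with 9, 9 and 8 genes above 3 counts. At D8, the 17 barcodes with 7500 genes or more had POU5F1 at 83.4 CPM (68.2 to 101), and 3 of them had 10 or more POU5F1 UMIs. At D21, 11 POU5F1 UMIs were in 5221 barcodes with 2000 genes or fewer.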

How the results depend on the processing

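The number of genes that fell from D8 to D14 was 7 of 9, and it was 4 without the cells of cluster 12. The share of cells with 3 or more of the genes was 43.0% at D8 and 8.17% at D14 without thinning, and 0.602% and 0.0279% when 2 UMIs were asked for. Without cluster 12 it was 2.93% at D8. At a resolution of 0.4 the leading cluster held 93.2% of the POU5F1 UMIs of D8. Among main ratios of 2-fold or more, the direction turned for SOX2 from D8 to D14 in CM-like cells alone (log2 ratio 1.498, from 2 and 11 UMIs). It also turned for POU5F1 from D14 to D21 in the same cells (0.59, from 4 and 3 UMIs). The same held for DNMT3B from D14 to D21 with the level in CM-like cells subtracted (0.77). TMM scaling moved every ratio by -0.11 from D8 to D14 and by 0.25 from D14 to D21, and DNMT3B was then at -0.88 in the later step, short of 2-fold, as it was at -0.93 from D8 to D14 by the mean of the cells' own CPM. The cause was not tested. Over 13 alternatives for the ratios of the 9 genes, 266 of 339 values moved by less than counting error, 70 moved by more and 3 turned. A turn was counted only where the main ratio was 2-fold or more. Changes of sign in smaller main ratios, such as all those of NANOG, are therefore not among the 3. No paired analysis was possible because each day has 1 library and the labels carry no replicate numbers. Depth limits POU5F1, SOX2 and LIN28A at D21 and NANOG on every day, whose levels rest on 3 to 44 UMIs.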
